A study of Mus musculus with 3 samples.

Results

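Expression of 8 of the 33696 genes in the deposited gene table was followed, namely *Angptl4*, *Lsmem1*, *Apod*, *Egfl8*, *Asb4*, *Lrp8*, *Itm2a* and *Nebl*, in retinal endothelial cells (ECs) with and without Norrin/beta-catenin signaling. They were chosen by their measured values in these libraries, because their summed endothelial counts were lower in both knockout libraries or because they led clusters made mostly of wild-type (WT) ECs. Their fall in the summed ECs is therefore the reason they are here and is given as a description. What the choice did not use is their level in other cell classes. The spread over EC subtypes and single ECs comes from the same cells that were used for the choice and is also a description.

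Retinal vascular cells of mice at postnatal day 6, enriched with beads against CD31 and CD11b, were profiled by 3' droplet sequencing in 3 libraries. The WT library came from WT mice, the *Tspan12* KO library from mice with a constitutive *Tspan12* knockout, and the *Ctnnb1* cKO library from *Ctnnb1* flox/flox; *Pdgfb*-iCreER mice given tamoxifen daily from the first postnatal days. The strain was C57BL/6 throughout, each library pooled mice of a litter, and the WT mice were from other litters than the knockout mice. *Pdgfb*-iCreER acts in ECs, whereas the *Tspan12* knockout affects every cell. The labels name no tamoxifen treatment or Cre for the WT mice. With 1 library per genotype, genotype and library cannot be told apart, no p-value can be given, and every interval is a 95% interval that covers counting error only.

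Norrin is a ligand made by retinal glia that binds the receptor Frizzled4 and its partner Lrp5 on ECs, and Tspan12 is an auxiliary subunit of that receptor complex. Binding stabilizes beta-catenin, the product of *Ctnnb1*, which enters the nucleus and acts with TCF and LEF factors. In the retina this pathway is known for guiding vessel growth and for inducing the blood-retina barrier. The 8 genes code for proteins of different kinds. *Angptl4* codes for a secreted inhibitor of lipoprotein lipase, *Apod* for a lipocalin that carries small lipids, and *Lrp8* for a receptor of reelin and apolipoprotein E. *Egfl8* codes for a secreted protein with EGF-like repeats, *Itm2a* for a membrane protein with a BRICHOS domain, *Asb4* for a SOCS box protein that recruits substrates to a ubiquitin ligase, *Nebl* for nebulette, an actin-binding protein, and *Lsmem1* for a small membrane protein.

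Promoters are shown because the genes were chosen for a shared fall in cells that lack a pathway acting through TCF and LEF factors. The RefSeq table, on build GRCm38.p6, held start-site windows for 7 of the 8 genes and none for *Angptl4*. The 250 bases upstream of each start were searched on both strands for CTTTGA and CTTTGT, the core letters of TCF and LEF sites, which do not overlap each other. Either was present in 27.6% of 32851 windows of that length and in 6 of the 13 windows of these genes. The 6 windows belong to 5 of 7 genes, some of which have several windows, and no share per gene was counted over all genes. CTTTGA was in 13.8% of all windows and in 1 member window, of *Nebl*, and CTTTGT in 16.5% of all windows and in 5 member windows, of *Apod*, *Asb4*, *Egfl8*, *Lrp8* and *Nebl*. A match is a run of letters and not a binding site. The windows of 3 genes lie outside every annotated transcript of the gene over at least 200 bases and are printed 5′ to 3′ with matches in capitals. The *Apod* window (chr16:31314809-31315058, minus strand) held 1 match, ACAAAG, which reads CTTTGT on the other strand and starts 84 bases before the window's end. The *Asb4* window (chr6:5383136-5383385, plus strand) and the 234 bases for *Itm2a* (chrX:107403377-107403610, minus strand) held none, which says only that these letters are not in these windows. The CTTTGT counted above for *Asb4* lies in another of its windows, which is not printed.
Apod: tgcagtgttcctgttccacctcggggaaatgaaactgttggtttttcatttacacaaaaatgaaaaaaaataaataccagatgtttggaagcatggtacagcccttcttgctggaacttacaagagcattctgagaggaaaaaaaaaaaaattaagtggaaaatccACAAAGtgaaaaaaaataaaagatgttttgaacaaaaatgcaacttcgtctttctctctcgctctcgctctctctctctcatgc
Asb4: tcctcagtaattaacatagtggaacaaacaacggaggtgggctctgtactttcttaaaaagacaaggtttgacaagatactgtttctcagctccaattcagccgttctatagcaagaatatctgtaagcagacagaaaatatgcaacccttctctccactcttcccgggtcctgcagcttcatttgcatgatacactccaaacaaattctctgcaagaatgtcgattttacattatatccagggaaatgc
Itm2a: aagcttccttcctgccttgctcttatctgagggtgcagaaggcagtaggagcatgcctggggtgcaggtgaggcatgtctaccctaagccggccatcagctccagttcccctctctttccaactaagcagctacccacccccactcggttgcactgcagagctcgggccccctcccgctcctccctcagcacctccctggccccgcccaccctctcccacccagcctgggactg

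The libraries held 9151 to 14426 barcodes and 37008362 to 137114957 UMIs (unique molecular identifiers, 1 per captured transcript), with 21 to 37 barcodes shared between any 2 libraries. After filtering, 538 WT, 292 *Tspan12* KO and 2712 *Ctnnb1* cKO cells were ECs by their markers, all 8 of which were found in each library at summed levels of 7056 to 8462 CPM (the UMIs of a gene over all UMIs of the cells, scaled to a fixed total). Where 3 values follow each other without names, they stand for WT, *Tspan12* KO and *Ctnnb1* cKO in that order. *Ctnnb1* cKO ECs were shallow, with a median of 3346.5 UMIs against 15785 for WT and 14485.5 for *Tspan12* KO. In ECs, *Tspan12* was present at 95.9 CPM in WT and 84.2 CPM in *Tspan12* KO, and *Ctnnb1* at 523 CPM in WT and 443 CPM in *Ctnnb1* cKO. Neither value checks the labels, since transcripts of a deleted allele can keep the 3′ end that was counted. Markers of other cells also moved between the ECs of the libraries. The 8 microglia markers summed to 135, 104 and 567 CPM in ECs, none of them at 0, and the 6 erythrocyte markers to 159, 3139 and 247 CPM, with 1 of them at 0 in *Ctnnb1* cKO. The part of these in the results was not tested.

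The genes were first followed in the summed ECs, where fewer cells of an EC type and less RNA per cell cannot be told apart. *Angptl4* (ENSMUSG00000002289) stood at 57.8 (54.1 to 61.6), 11.7 (9.18 to 14.6) and 9.56 (7.95 to 11.4) CPM. It was thus 4.95-fold lower in *Tspan12* KO and 6.04-fold lower in *Ctnnb1* cKO, and the intervals of the knockout libraries overlapped each other but not that of WT. *Apod* (ENSMUSG00000022548), the other gene of lipid transport with a secreted product, stood at 125, 15.6 and 45.8 CPM. Its level was 8.02-fold lower than WT in *Tspan12* KO, with 2.73-fold for the other knockout library, so that *Tspan12* KO was the lowest of the 3. *Lrp8* (ENSMUSG00000028613) stood at 302, 103 and 73.7 CPM, 2.93-fold and 4.10-fold lower.

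*Itm2a* (ENSMUSG00000031239) rested on 13786 UMIs in WT ECs, so its intervals are narrow. Its level was 857, 325 and 154 CPM. On the log2 scale it was −1.40 (−1.47 to −1.33) from WT for *Tspan12* KO and −2.47 (−2.54 to −2.41) for *Ctnnb1* cKO. *Egfl8* (ENSMUSG00000015467) stood at 130, 38.7 and 17.1 CPM. For both genes the 3 libraries were separate, with *Ctnnb1* cKO the lowest. *Egfl8* adjoins *Ppt2* and *Agpat1* closely enough that reads at the gene ends are uncertain. Those neighbours stood at 37.5 and 34.9 CPM in WT ECs, with log2 ratios from −0.57 to 0.11 in the knockout libraries.

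*Asb4* (ENSMUSG00000042607) stood at 120, 30.3 and 27.1 CPM, with overlapping intervals in the knockout libraries. *Nebl* (ENSMUSG00000053702) stood at 55.3 (51.7 to 59.1), 18.5 (15.3 to 22.2) and 30.8 (27.8 to 34.0) CPM. *Nebl* showed the smallest difference of the 8 genes in *Ctnnb1* cKO, a log2 ratio of −0.85 (−1.02 to −0.67). *Lsmem1* (ENSMUSG00000071342) had 341, 5 and 6 UMIs, or 21.2, 0.778 and 0.466 CPM. On the log2 scale the ratios were −4.77 (−6.40 to −3.53) for *Tspan12* KO and −5.51 (−6.96 to −4.37) for *Ctnnb1* cKO, with the widest intervals of the 8 genes because they rest on those few knockout UMIs.

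**Figure D1:**
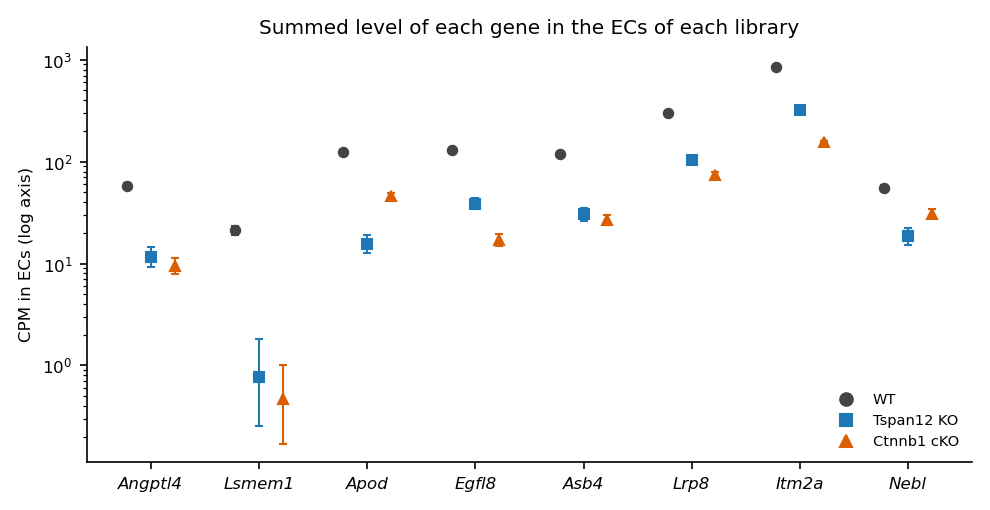
Level of each gene in the summed ECs of the WT, *Tspan12* KO and *Ctnnb1* cKO libraries, in CPM on a log axis, with exact Poisson 95% intervals that cover counting error only. All 8 genes are highest in WT, *Apod* and *Nebl* are lowest in *Tspan12* KO, and *Lsmem1* falls from 21.2 CPM to under 1 CPM in both knockout libraries.

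At a log2 ratio of −1 or lower stood 8 of 8 genes in *Tspan12* KO, where 5.06% of 13230 genes with at least 50 EC UMIs did, and 7 of 8 in *Ctnnb1* cKO, where 12.9% did. The share of genes at that ratio in both libraries was 2.62%. The 8 genes had medians of −1.86 (*Tspan12* KO) and −2.31 (*Ctnnb1* cKO), against 0.01 and −0.12 over all 13230 genes. The rule chose the genes on this contrast, so nothing is read from these counts. Counted from the largest fall, the genes ranked from 15 (*Lsmem1*) to 353 (*Itm2a*) in *Tspan12* KO. In *Ctnnb1* cKO they ranked from 8 (*Lsmem1*) to 835 (*Apod*), with *Nebl* at 2239. Both comparisons share the WT library, so that a high value there lowers both ratios.

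The ECs of the libraries differed in depth, and *Lsmem1* varied with depth within WT. In WT ECs split into quartiles of UMIs per cell, *Lsmem1* had 0 UMIs in the shallowest 135 cells (523 to 7529 UMIs), which allows up to 4.80 CPM. It stood at 7.53, 18.7 and 25.1 CPM in the next quartiles, and the deepest held 267 of the 341 UMIs, with up to 18 in a cell. Each of the other 7 genes was no higher in the deepest WT quartile than in the shallowest. *Apod* went from 344 CPM in the shallowest WT ECs to 85.2 CPM in the deepest, *Lrp8* from 493 to 278 CPM and *Angptl4* from 122 to 48.6 CPM. At like depth, WT ECs of 15792 to 39513 UMIs held *Lsmem1* at 18.7 CPM and *Tspan12* KO ECs of 14561 to 33437 UMIs at 1.15 CPM (0.140 to 4.17). Among ECs of 2000 to 10000 UMIs, the range that holds most *Ctnnb1* cKO ECs, *Lsmem1* had 2, 0 and 3 UMIs in 172 WT, 96 *Tspan12* KO and 1617 *Ctnnb1* cKO cells. A fall of *Lsmem1* was not detectable there, since the ratio of *Ctnnb1* cKO to WT had a log2 interval from −5.35 to 1.35.

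The other 7 genes were lower in both knockout libraries within that range of depth too. *Angptl4* stood at 93.5, 21.9 and 9.75 CPM, and *Apod* at 251, 15.9 and 52.2 CPM. The log2 ratios of these 7 genes ran from −3.98 (*Apod*) to −0.82 (*Nebl*) in *Tspan12* KO and from −3.26 (*Angptl4*) to −0.86 (*Nebl*) in *Ctnnb1* cKO. The limits of depth were set after the data were seen.

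To follow single ECs at 1 depth, each cell was thinned to 2000 UMIs, which left 520, 262 and 1887 ECs and took out 18, 30 and 825 shallower ones. *Itm2a* was found in 67.9% (63.7 to 71.9), 43.5% (37.4 to 49.8) and 24.7% (22.8 to 26.8) of ECs. Without thinning these shares were 93.3%, 76.4% and 34.9%. *Lrp8* was found in 42.7%, 22.1% and 12.7% of thinned ECs, and in 82.2%, 61.0% and 21.0% without thinning. *Apod* and *Egfl8* were each found in 21.0% of WT ECs, and in the knockout libraries in 3.82% to 6.87% of ECs. *Angptl4* and *Asb4* each went from 15% of WT ECs to 1.96% to 4.29% of knockout ECs. *Nebl* was found in 7.12% (5.06 to 9.67), 3.44% (1.58 to 6.42) and 4.56% (3.66 to 5.60), where all 3 intervals overlapped. *Lsmem1* was found in 1.92%, 0.382% and 0.0530% of thinned ECs, from 1 cell in each knockout library. Without thinning, *Angptl4*, *Lsmem1*, *Apod*, *Egfl8*, *Asb4* and *Nebl* were found in 20.1% to 66.0% of WT ECs, in 1.71% to 37.7% of those of *Tspan12* KO and in 0.184% to 10.5% of those of *Ctnnb1* cKO.

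Rods, neurons that should lack the vascular genes, gave the level of free RNA. Thinned rods held a UMI of *Angptl4*, *Lsmem1*, *Apod*, *Egfl8*, *Asb4* or *Nebl* in at most 0.551% of cells for any of them, where the cells had medians of 3524, 2106 and 1633.5 UMIs before thinning. That level is the *Egfl8* share of WT rods. EC shares lay above it, except those of *Lsmem1* in both knockout libraries. For *Lsmem1* alone, rods held 0.184%, 0.0781% and 0%. The *Lsmem1* shares of knockout ECs, from 1 cell in each library, cannot be told apart from background. *Lrp8* was found in 19.7% to 25.6% of rods and is a gene of neurons too, so microglia served in its place. There *Lrp8* was found in 1.24% to 2.57% and *Itm2a* in 0.965% to 3.73% of thinned cells, with medians of 9660.5, 7430 and 3075.5 UMIs before thinning.

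Counted together in the thinned ECs, none of the 8 genes was seen in 12.9%, 37.4% and 56.4% of cells. UMIs of 3 or more different genes were held by 166 WT ECs (31.9%), 10 *Tspan12* KO ECs (3.82%) and 53 *Ctnnb1* cKO ECs (2.81%). A WT cell showed up to 6 of the genes, a *Tspan12* KO cell up to 3 and a *Ctnnb1* cKO cell up to 4. The mean number of member UMIs per thinned EC was 3.80, 1.31 and 0.793.

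**Figure D2:**
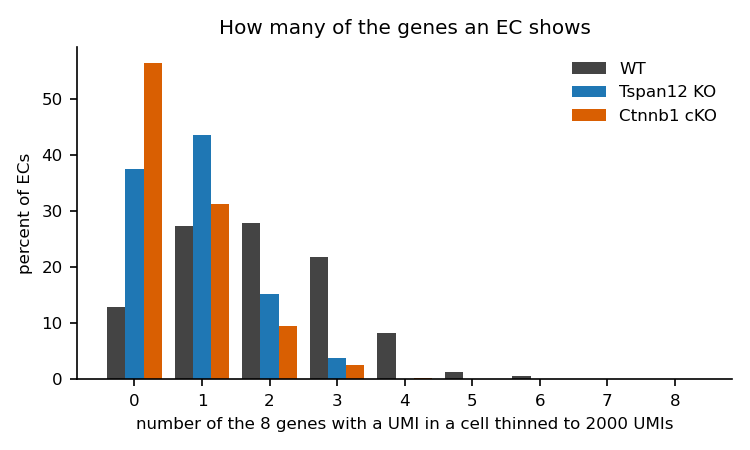
Number of the 8 genes with a UMI in an EC thinned to 2000 UMIs (horizontal axis) and the percentage of the ECs of each library that show it (vertical axis, from 0). WT ECs peak at 1 and 2 genes, 56.4% of *Ctnnb1* cKO ECs show none, and no *Tspan12* KO EC shows more than 3.

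EC subtypes were then compared. When the ECs of the 3 libraries were clustered together into 10 subclusters, 5 of these held *Ctnnb1* cKO cells alone, so subtypes were also named within each library on its own. This second clustering was chosen after the data were seen. It left 330 WT (61.3%), 112 *Tspan12* KO and 1128 *Ctnnb1* cKO ECs unnamed. The unnamed WT ECs held 84.5% of *Apod*, 64.5% of *Asb4*, 63.9% of *Lrp8* and 60.5% of *Itm2a* UMIs of WT ECs. Among unnamed ECs *Apod* stood at 247, 1.46 and 25.2 CPM and *Lrp8* at 451, 92.2 and 38.7 CPM. Whether like cells are compared among them was not tested. Arterial-like ECs, named by markers such as *Bmx* and *Gja4*, numbered 45, 89 and 364. *Nebl* was concentrated there. Arterial-like cells were 8.36% of WT ECs and held 70.2% of their *Nebl* UMIs, and they held 93.3% of *Nebl* UMIs in *Tspan12* KO and 71.5% in *Ctnnb1* cKO. In arterial-like ECs *Nebl* stood at 638, 106 and 275 CPM, log2 ratios of −2.59 and −1.21. *Nebl* is among the leading genes of the WT and *Tspan12* KO arterial-like clusters and of 1 of the 2 in *Ctnnb1* cKO, so that its concentration there is no result apart from the clustering.

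*Egfl8* was also high in arterial-like ECs, at 600, 111 and 80.6 CPM. *Asb4* stood there at 232, 34.3 and 40.8 CPM, and *Itm2a* at 1289, 582 and 147 CPM. *Lsmem1* was at 33.7 CPM in WT and at 0 UMIs in both knockout libraries, at least 11.8-fold lower in *Tspan12* KO and at least 11.6-fold lower in *Ctnnb1* cKO against a floor of 3 counts per library. The arterial-like ECs held 979792, 1049180 and 1029335 UMIs in all, from 45, 89 and 364 cells, so their depth per cell was unlike. *Lsmem1* varied with depth in WT ECs, and the part of depth in these folds was not tested. A pair of genes split the knockout libraries. *Apod* stood at 43.9, 51.5 and 5.83 CPM, log2 ratios of 0.23 (−0.37 to 0.84) and −2.91. *Lrp8* stood at 151, 147 and 24.3 CPM, log2 ratios of −0.04 (−0.38 to 0.29) and −2.64. Neither was lower in the arterial-like ECs of *Tspan12* KO beyond counting error. In WT, arterial-like ECs held only 2.14% of the *Apod* and 3.05% of the *Lrp8* UMIs of ECs. The arterial-like cells of *Tspan12* KO passed 6 of the 9 arterial markers against 9 in WT and were 30.5% of its ECs, and the arterial-like subcluster of the joint clustering held 0 WT and 4 *Tspan12* KO cells. Whether like cells are compared in arterial-like ECs, for *Nebl* as for the other genes, was not tested.

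Proliferative-like ECs, named by mitotic genes, numbered 143, 91 and 335. Those of *Tspan12* KO pooled a cluster of 54 cells that passed 9 of the 9 markers and another of 37 cells that passed 6. Whether like cells are compared in proliferative-like ECs was not tested. *Angptl4* stood at 41.9, 11.2 and 8.78 CPM in them, *Itm2a* at 555, 298 and 140 CPM, *Lrp8* at 206, 95.9 and 76.3 CPM and *Asb4* at 55.0, 28.0 and 23.3 CPM. All of these were lower in both knockout libraries. The exceptions lay in *Ctnnb1* cKO. *Apod* stood at 35.3 CPM in WT and 27.5 CPM there, a log2 ratio of −0.36 (−0.76 to 0.02). *Nebl* was low in every library, at 4.97, 0.603 and 6.49 CPM.

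Tip-like ECs were found in WT (20 cells) and *Ctnnb1* cKO (589 cells). The *Ctnnb1* cKO cluster passed 4 of the 8 tip markers against 8 in WT, and *Apod* and *Lrp8* were among its leading genes, so the values are set side by side without a comparison. *Apod* stood at 13.1 CPM in WT and 143 CPM in *Ctnnb1* cKO tip-like cells, and *Lrp8* at 116 and 194 CPM. Those 589 cells were 21.7% of *Ctnnb1* cKO ECs and held 63.8% of their *Apod* and 53.9% of their *Lrp8* UMIs. *Angptl4* stood at 25.2 and 23.9 CPM, *Egfl8* at 24.2 and 19.0 CPM, *Asb4* at 57.5 and 43.3 CPM and *Itm2a* at 159 and 290 CPM. *Lsmem1* was at 34.3 CPM in WT and at 0 UMIs in *Ctnnb1* cKO.

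**Figure D3:**
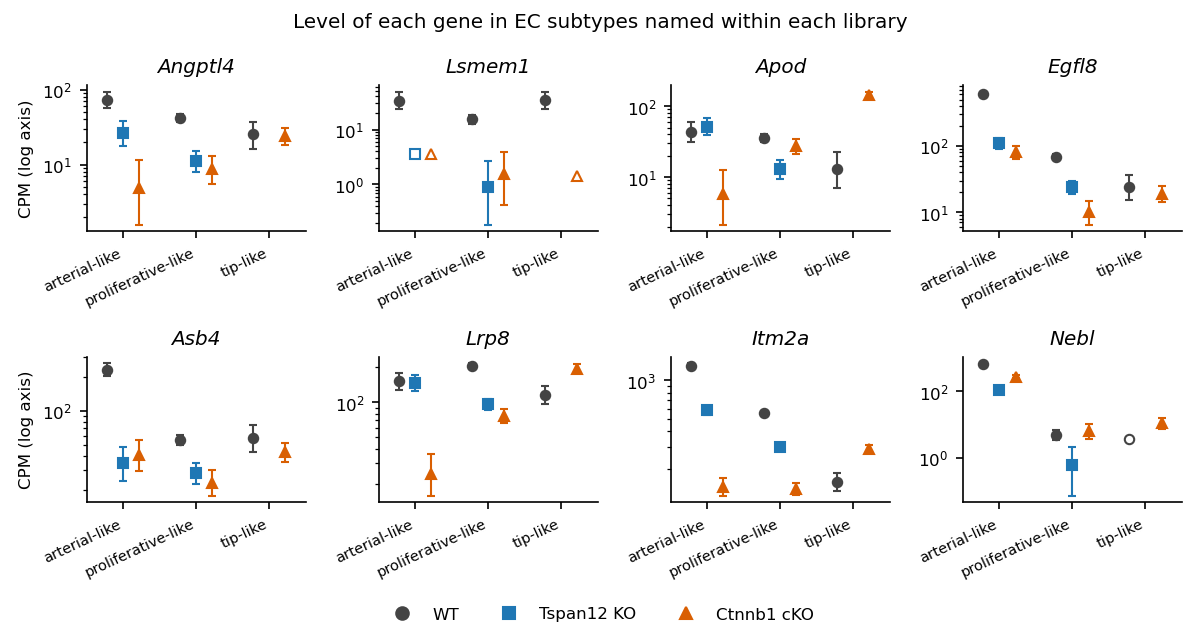
Level of each gene (CPM, log axis) in arterial-like, proliferative-like and tip-like ECs named within each library, with exact Poisson 95% intervals. Open symbols mark 0 UMIs and are drawn at the upper bound of the interval, and *Tspan12* KO has no tip-like cluster. *Nebl* and *Egfl8* are highest in WT arterial-like ECs, at 638 and 600 CPM.

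In the joint clustering, the capillary-like subcluster held 297 WT, 62 *Tspan12* KO and 10 *Ctnnb1* cKO ECs, and *Itm2a* and *Egfl8* are among its leading genes. The *Ctnnb1* cKO cells are too few to compare. Between WT and *Tspan12* KO, *Asb4* stood at 205 and 29.0 CPM, *Apod* at 238 and 82.1 CPM, *Angptl4* at 78.2 and 29.0 CPM, *Lrp8* at 445 and 193 CPM and *Itm2a* at 1278 and 828 CPM. *Nebl* stood at 121 and 107 CPM, a difference within counting error. The capillary-like cells were 55.2% of WT ECs and 21.2% of *Tspan12* KO ECs. In this subcluster the log2 ratio was −1.53 for *Apod*, −0.63 for *Itm2a* and −0.18 for *Nebl*, against −3.0, −1.40 and −1.58 in the summed ECs. *Angptl4* had −1.43 against −2.31, *Lrp8* −1.20 against −1.55 and *Egfl8* −0.66 against −1.75. *Asb4* went the other way, at −2.82 against −1.98. *Lsmem1* had −4.69, from 1 *Tspan12* KO UMI, against −4.77. The subcluster held 849 of the 890 WT and 107 of the 119 *Tspan12* KO *Nebl* UMIs, so it took in arterial-like ECs too. Whether like cells are compared in it was not tested.

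Other cell classes were not used to choose the genes. Over all non-endothelial cells, 4 of 8 genes stood at a log2 ratio of −1 or lower in *Tspan12* KO, where 4.63% of 18736 genes did, and 4 of 8 in *Ctnnb1* cKO, where 23.6% did. For *Tspan12* KO their median was −0.996, with −0.10 over all genes, and for *Ctnnb1* cKO −0.70, with −0.35. These sums mix classes whose shares differ between the libraries. Within classes, taking for each gene the median over 6 classes of the log2 ratio of CPM + 5, 0 of 8 stood at −1 or lower in either library. By the same measure 0.0374% of the 18736 genes did in *Tspan12* KO and 1.81% in *Ctnnb1* cKO. A gene under 5 CPM in WT cannot reach −1 by this measure, even at 0 in a knockout library. *Asb4* was that low in Muller glia, rods, amacrine cells and microglia, so the count was partly fixed in advance and nothing is read from it.

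*Lsmem1* was also lower in the knockout microglia. These held it at 82.8 (72.3 to 94.4), 5.65 (3.16 to 9.32) and 1.47 (0.737 to 2.64) CPM, from 225, 15 and 11 UMIs. The log2 ratios were −3.87 (−4.73 to −3.12) and −5.81 (−6.83 to −4.94), a 14.7-fold and a 56.2-fold lower level. The 8 markers of ECs summed to 161, 84.0 and 348 CPM in microglia, none of them at 0, and their part in these values was not tested. As in ECs it rose with depth in WT microglia, from 0 UMIs in the shallowest quartile, which allows up to 25.1 CPM, to 13.3, 68.9 and 123 CPM, with up to 34 UMIs in a cell. At like depth, WT microglia of 9667 to 13373 UMIs held 68.9 CPM and *Tspan12* KO microglia of 9637 to 25275 UMIs 7.08 CPM (3.06 to 13.9). The 56.2-fold value sets unlike depths side by side, medians of 9660.5 UMIs in WT and 3075.5 in *Ctnnb1* cKO. Nearer in depth, WT microglia of 2797 to 9654 UMIs held 13.3 CPM (4.88 to 28.9). *Ctnnb1* cKO microglia of 4221 to 16086 UMIs held 1.87 CPM (0.686 to 4.07), from 6 UMIs as in that WT quartile. Muller glia, the main glia of the retina, held *Lsmem1* at 3.31, 2.47 and 1.13 CPM. No difference was detectable there at this depth, the log2 interval being −1.59 to 0.65 for *Tspan12* KO and −6.91 to 1.05 for *Ctnnb1* cKO.

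Of the 4 genes with at least 50 UMIs in microglia (*Angptl4*, *Lsmem1*, *Lrp8* and *Itm2a*), 3 stood at −1 or lower in *Tspan12* KO, where 3.19% of genes did, and 2 in *Ctnnb1* cKO, where 8.42% did. *Lsmem1* passed that limit of UMIs only through WT, where it was high. It could thus enter only as a gene lower in the knockout libraries, and nothing is read from these counts. *Itm2a* was at 16.9, 4.52 and 6.70 CPM in microglia, log2 ratios of −1.90 (−2.96 to −0.96) and −1.34 (−1.94 to −0.73). In WT microglia it stood at 33.4, 33.2, 7.25 and 15.9 CPM from the shallowest to the deepest quartile. The 8 EC markers summed to 161, 84.0 and 348 CPM in microglia. Their part in the *Itm2a* and *Angptl4* values, and so in these counts, was not tested. *Angptl4* had 19, 9 and 37 UMIs and differed from WT by less than counting error in both. *Lrp8* was at 10.7, 12.1 and 11.5 CPM, with both intervals of the log2 ratio spanning 0.

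In rods the 4 genes with at least 50 UMIs were *Apod*, *Egfl8*, *Lrp8* and *Itm2a*. At −1 or lower stood 1 of them, *Apod*, in *Tspan12* KO, where 1.74% of genes did, and 0 in *Ctnnb1* cKO, where 14.0% did. *Lrp8* is also a receptor of neurons. Rods held *Lrp8* at 119 (113 to 127), 128 (122 to 134) and 154 (144 to 164) CPM. In amacrine cells it stood at 132, 130 and 159 CPM, and in Muller glia at 76.9, 80.7 and 95.8 CPM. The lower level of *Lrp8* in knockout ECs was thus not seen in these classes, where its log2 ratio ran from −0.02 to 0.36.

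*Nebl* stood at 99.4, 94.3 and 33.6 CPM in amacrine cells, log2 ratios of −0.08 (−0.25 to 0.09) and −1.57 (−2.12 to −1.06). WT and *Tspan12* KO amacrine cells thus differed by less than counting error, and *Ctnnb1* cKO was lower. *Itm2a* stood in Muller glia at 109, 96.4 and 36.1 CPM, log2 ratios of −0.18 (−0.35 to −0.01) and −1.60 (−2.15 to −1.09), and in retinal progenitors at 123, 124 and 39.3 CPM. Amacrine cells, Muller glia and progenitors numbered 256, 468 and 95 in *Ctnnb1* cKO, at median depths of 2350, 1560 and 2324 UMIs, against 5443, 5740 and 8047.5 UMIs in WT, and the part of depth in these values was not tested.

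*Angptl4* was also found in astrocytes, at 110 CPM (66.1 to 172) in WT and 34.9 CPM (21.0 to 54.5) in *Tspan12* KO, from 19 UMIs each in 21 and 48 cells. The log2 ratio was −1.65 (−2.65 to −0.66), and 1 UMI in *Ctnnb1* cKO allowed no comparison. The 8 EC markers summed to 185 CPM in WT and 553 CPM in *Tspan12* KO astrocytes, with 1 and 0 of them at 0. The mural class held *Angptl4* at 63.1 CPM in WT, *Itm2a* at 481 CPM and *Lrp8* at 254 CPM, but these cells also carried EC markers at 4586 to 5713 CPM, so their values cannot be told apart from those of ECs. *Asb4* stayed at or under 4.49 CPM in Muller glia, rods, amacrine cells and microglia of every library.

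**Figure D4:**
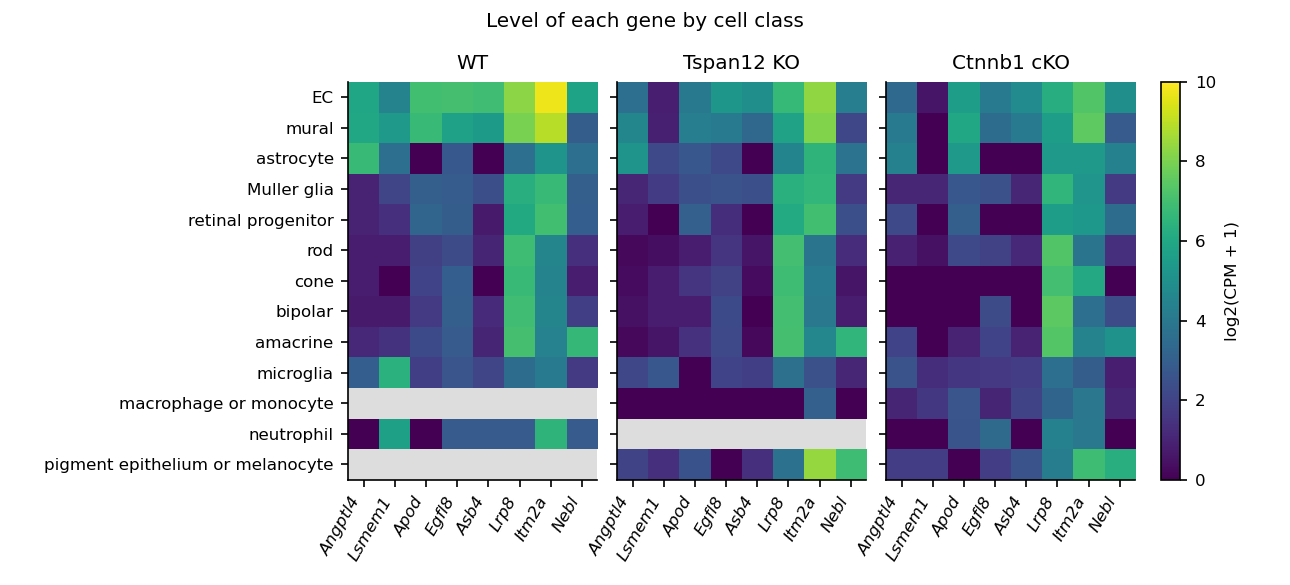
Level of each gene, log2(CPM + 1), in every cell class of the WT, *Tspan12* KO and *Ctnnb1* cKO libraries; grey marks classes with fewer than 13 cells. *Lrp8* is present across neurons in all libraries, *Nebl* in amacrine cells, and *Lsmem1* in WT microglia at 82.8 CPM.

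Genes whose pattern over the EC subclusters of each library was most like that of a member were found by Pearson's r of log2(CPM + 5) over 13 points. Each point was a joint subcluster within a single library, with at least 20 cells. These points share 3 libraries, so r is a description without a test. *Angptl4* was most like *Slc38a5* (r = 0.964), a glutamine transporter, and *Slc16a1* (r = 0.949), a monocarboxylate transporter, both solute carriers of the barrier. *Itm2a* was most like *Slc31a1* (r = 0.925), a copper transporter. *Nebl* was most like *Pcsk5* (r = 0.926), *Egfl8* like *Chmp5* (r = 0.925) and *Lrp8* like *Ptpn4* (r = 0.950). *Asb4* was most like *Daam1* (r = 0.949), *Lsmem1* like *Gm17056* (r = 0.958) and *Apod* like *Def6* (r = 0.900). Among the members themselves r was highest for *Angptl4* and *Itm2a* (0.871) and lowest for *Lrp8* and *Nebl* (0.137). The members were chosen for lower levels in the knockout ECs, so positive r among them was partly set by the choice.

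Partners and relatives of each gene were read from lists in the same ECs, counting the members of a list with at least 50 UMIs, in which the median over 13230 genes was 0.01 for *Tspan12* KO and −0.12 for *Ctnnb1* cKO. Over those 13230 genes, 5.06% in *Tspan12* KO and 12.9% in *Ctnnb1* cKO stood low, at −1 or lower, and 2.8% and 8.54% stood high, at 1 or higher, against which the counts of each list are to be read. Of 11 lipase and fatty acid genes around *Angptl4*, 2 stood at −1 or lower and 1 at 1 or higher in *Tspan12* KO, and 4 and 2 in *Ctnnb1* cKO, with medians of −0.29 and −0.16. *Ppard*, a nuclear receptor that induces *Angptl4* in other tissues, stood at 91.2, 35.8 and 34.5 CPM. *Gpihbp1*, which carries lipoprotein lipase on capillary ECs, was higher in both, at 25.4, 69.9 and 109 CPM. *Angptl4* is also a hypoxia-induced gene. Of 9 such genes, 1 stood low in each knockout library and 1 high in *Ctnnb1* cKO, with medians of 0.28 and 0.02. For low genes in *Ctnnb1* cKO, 1 of 9 is near the 12.9% over all genes. The low gene in *Tspan12* KO was *Adm*, at 28.1 CPM in WT and 9.18 CPM there.

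Of 9 genes of reelin and apolipoprotein E signaling around *Lrp8*, 1 stood low and 1 high in *Tspan12* KO and 2 low and 3 high in *Ctnnb1* cKO, with medians of 0.00 and 0.32. *Apoe*, an *Lrp8* ligand, stood at 190, 73.6 and 623 CPM in ECs. It is also a marker of Muller glia, whose other 5 markers summed to 229, 172 and 145 CPM in ECs with none at 0, while the 8 microglia markers summed to 135, 104 and 567 CPM. Their part in the *Apoe* values was not tested. *Dab1*, the adaptor that *Lrp8* signals through, was at 7.46, 7.31 and 2.41 CPM. Of 5 apolipoprotein genes and *Apod* partners, 3 stood low in *Tspan12* KO, and 1 low and 3 high in *Ctnnb1* cKO, with medians of −1.13 and 1.71. *Apoe* is counted in this list too, and *Lcn2*, low in *Tspan12* KO, rests on 1 UMI there. *Bsg*, a reported receptor of Apod, stood at 1882, 863 and 431 CPM.

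Most close relatives of the members stayed within a log2 ratio of −1 to 1. *Itm2b* and *Itm2c*, the other genes of the *Itm2a* family, stood at 925 and 115 CPM in WT ECs, with log2 ratios from −0.23 to 0.26 in both knockout libraries and 0 of 2 past the fold. *Egfl7*, an EC gene of the *Egfl8* family, stood at 870, 937 and 1210 CPM, and 0 of the 3 genes of its list passed. Of 10 genes of the *Asb* family and its ligase, 0 stood low in either library and 1, *Asb1*, stood high in *Ctnnb1* cKO, with medians of 0.17 and 0.05. Of 8 nebulin family and actin genes, 0 passed in *Tspan12* KO and 2 stood low in *Ctnnb1* cKO, *Neb* at 1.99 CPM in WT and 0.855 CPM there, and *Vasp* at 182 and 66.6 CPM.

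Of 17 barrier genes of brain and retinal ECs, 5 stood low and 1 high in *Tspan12* KO and 8 low and 0 high in *Ctnnb1* cKO, with medians of −0.21 and −0.66. The shares over all genes were 5.06% low and 2.8% high in *Tspan12* KO and 12.9% low and 8.54% high in *Ctnnb1* cKO. Low in both were *Slc38a5*, at 320, 35.8 and 41.2 CPM, *Mfsd2a*, a lipid transporter of the barrier, at 175, 84.3 and 79.9 CPM, *Slc16a1*, at 26.3, 4.98 and 3.03 CPM, and others. Other barrier genes were higher than in WT. *Slc2a1*, the glucose transporter of the barrier, stood at 642, 866 and 968 CPM and *Abcb1a*, an efflux pump, at 171, 187 and 270 CPM. The gene that stood high in *Tspan12* KO was *Tnfrsf19*, at 30.7, 73.6 and 46.8 CPM.

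The members were last followed under 16 other choices of cells, scaling or thinning. *Angptl4*, *Egfl8*, *Asb4*, *Lrp8* and *Itm2a* stayed below 0 in both libraries under every choice that gave a value. *Lsmem1* did so too where it had UMIs to compare, with its value closest to 0 at −1.27 in *Tspan12* KO under a gate on EC markers, an interval from −4.47 to 0.90. For *Lrp8*, the value in arterial-like ECs of *Tspan12* KO was −0.04 (−0.38 to 0.29), within counting error. Tip-like ECs were not among the choices. There *Lrp8* stood at 116 CPM in WT and 194 CPM in *Ctnnb1* cKO, and *Itm2a* at 159 and 290 CPM. The genes were chosen on this contrast in ECs, so nothing is read from these signs.

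**Figure D5:**
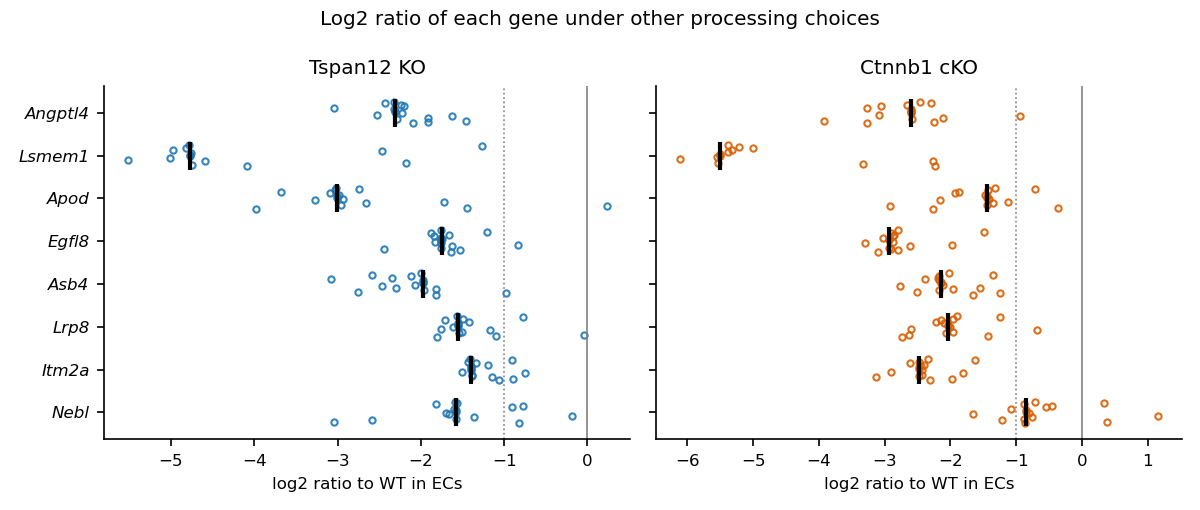
Log2 ratio to WT of each gene in ECs as reported (black bar) and under each alternative choice of cells, scaling or thinning (circles), in *Tspan12* KO and *Ctnnb1* cKO; the dotted line marks −1. Values lie above 0 for *Apod* in arterial-like ECs of *Tspan12* KO (0.23) and for *Nebl* under 3 choices in *Ctnnb1* cKO (0.33 to 1.16).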

How the data were processed

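The authors deposited raw UMI counts per gene and cell barcode, made with cellranger 8.0.1 per the file headers; build GRCm39 is in their processing notes, the methods name another build, and it was not settled, so coordinates are those of RefSeq. No barcode had under 500 UMIs. Cells needed 250 genes, 500 UMIs and a mitochondrial share of 15% or less, and the highest Scrublet scores were removed in proportion to the size of the library (665 to 1656 cells), leaving 8989 WT, 12732 *Tspan12* KO and 8451 *Ctnnb1* cKO cells. Median UMIs per barcode were 4974, 3166 and 2790, and median mitochondrial shares 2.31%, 1.80% and 0.374%. The cells were clustered with scanpy 1.11.5 and leidenalg 0.10.2 at resolution 1 (2000 variable genes, 30 components, 20 neighbours, no integration), and the 32 clusters were named from fixed markers; a name stands for cells like that class. A name needed 3 markers at a log2 fold of 1, and 3875 WT, 6315 *Tspan12* KO and 228 *Ctnnb1* cKO cells stayed unnamed.

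Counts were summed per class and library and divided by their total (CPM). Intervals are exact Poisson for CPM, conditional binomial for log2 ratios and Clopper-Pearson for shares; a count of 0 was set to a floor of 3. UMIs come from 3′ ends and are not per length, so levels are not compared between genes as amounts of transcript. Ratios used genes with at least 50 UMIs over the 3 libraries. The interval code was tested on simulated data. The sensitivity choices were marker gating, doublets, depth, thinning, clustering, scaling by edgeR 4.0.16 (R 4.3.3), cycling cells and pseudocount. Of the 16 in ECs, 4 (2 EC subtypes, the shallow subcluster and the range of 2000 to 10000 UMIs) were chosen after the data were seen, as were the depth quartiles. Software was Python 3.11.15, numpy 2.4.6, pandas 2.3.3 and scipy 1.17.1.

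The 8 genes and all lists were chosen with earlier results of these data known. The named genes are the 8, members of their partner lists and the 3 genes most alike in pattern, by r, among those with at least 200 UMIs in ECs; the genes named beside *Asb4* under other observations were chosen after their values were seen. A gene that this rule names is not reported here.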

Additional observations from a re-analysis of the deposited data

Results flagged for a closer look

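*Lrp8* moved in opposite directions in 2 cell classes of the *Ctnnb1* cKO library. Its log2 ratio to WT was 0.36 (0.23 to 0.49, counting error only) in rods and −2.03 in ECs. With 1 library per genotype the difference between the classes was not tested.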

How the results depend on the processing

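No paired analysis was possible because each genotype has 1 library, and for the same reason no library could be left out. Over the alternatives in ECs, 247 of 251 member values lay below 0. The genes were chosen for low values in these knockout ECs, so that count was largely set in advance and nothing is read from it. The 4 that reversed were *Apod* in arterial-like ECs of *Tspan12* KO (0.23) and *Nebl* in *Ctnnb1* cKO, under the marker gate (0.33), with subclusters weighted by their share of WT ECs (1.16) and in proliferative-like ECs (0.39). The weighted value of *Nebl* rests on subclusters with 10 to 16 *Ctnnb1* cKO cells. The median of the 8 genes in *Tspan12* KO was −1.42 under the marker gate, −2.16 thinned to 2000 UMIs, −2.11 without cycling ECs, −1.39 weighted, where 5 of 8 genes stood at −1 or lower, and −1.49 in proliferative-like ECs. In *Ctnnb1* cKO it was −1.42 under the marker gate, −2.83 without cycling ECs, −1.34 weighted, −2.04 with a pseudocount of 5 CPM, −2.90 in arterial-like and −1.71 in proliferative-like ECs. Over non-endothelial cells the count at −1 or lower was 0 in both libraries as a median over classes, a measure that genes under 5 CPM in WT cannot pass. It was 2 in *Tspan12* KO after thinning and 2 in *Ctnnb1* cKO with TMM. That scaling raised every gene by 0.38 in the non-endothelial cells of *Ctnnb1* cKO and by 0.13 in its ECs. No share over all genes is given for the weighted, thinned and TMM counts, so nothing is read from them. With at least 200 UMIs, 8 and 7 of 8 genes stood at −1 or lower, where 2.6% and 10% of 10315 genes did. The causes of these shifts were not tested. *Lsmem1* had 12, 2 and 0 UMIs in the 470 WT, 161 *Tspan12* KO and 943 *Ctnnb1* cKO cells of the marker gate.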

Other observations

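When WT ECs were clustered on their own, *Asb4* led a subcluster of 82 cells, together with *Icam1*, *Rel*, *Egr3*, *Egr1* and *Atf3*, genes known to respond to stimulation and stress. These 5 genes were chosen from its leading genes after their values were seen. *Asb4* stood at 267 CPM (250 to 284) in it, at 232 CPM in arterial-like and at 55.0 CPM in proliferative-like WT ECs. A subcluster of 56 WT cells held 1 UMI of *Asb4*, or 2.36 CPM (0.0598 to 13.2), and 1 of *Lsmem1*. *Asb4* was part of what defined these clusters. In the knockout libraries, subclusters held *Asb4* at up to 45.2 CPM.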
